A study of Mus musculus with 32 samples.

Results

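The proteins and regulators of folding in the endoplasmic reticulum (ER) described here in single mouse embryos are the chaperones Canx, Calr, Hspa5 and Hsp90b1, the disulfide isomerases Pdia3, Pdia4 and Pdia6, and the stress transcription factors Xbp1, Atf4 and Ddit3. These 10 genes were taken by symbol from a table of 34223 genes, each symbol matched 1 row, and all 10 were among the 15559 genes with values high enough to be tested. The selection names genes and uses no threshold, but the list was chosen by hand with the normalised counts and fold changes of this same comparison known. The adjusted p-values below therefore describe a fit over all genes and are not independent evidence for these members.

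Val_LNA embryos had received a locked nucleic acid (LNA) oligonucleotide antisense to tRFValCAC, a fragment of the valine tRNA that the series title describes as enriched in sperm. Their controls, Ctrl_LNA, had received a scrambled LNA oligonucleotide. Both groups were wild type, both also carried injected mRNA for GFP-tagged histone H3.3, and GFP-positive embryos of the late 2-cell stage were taken 28 h after in vitro fertilization. Each of the 16 Val_LNA and 16 Ctrl_LNA libraries is polyadenylated RNA of 1 embryo, and the labels do not say which embryos shared a mating or an injection session, so each p-value reflects the variation among these 32 embryos alone. The abundance of the tRNA fragment itself was not measured in these libraries, and a value sums both cells of an embryo, so a change in 1 cell and a smaller change in both cannot be told apart.

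Proteins that enter the ER are folded there by chaperones. Hspa5 (BiP) and Hsp90b1 (GRP94) bind unfolded chains, the lectins Canx (calnexin) and Calr (calreticulin) hold glycoproteins that carry a trimmed sugar, and protein disulfide isomerases form and rearrange disulfide bonds. When unfolded protein accumulates, the sensors Ern1, Atf6 and Eif2ak3 start the unfolded protein response, in which Xbp1 and cleaved Atf6 raise chaperone genes and translation of Atf4 leads to Ddit3 (CHOP). In the 2-cell mouse embryo the major wave of zygotic transcription is under way, while much of the RNA stored in the egg is being cleared.

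Depth lay between 2592925 and 6259870 reads per embryo. One control, Ctrl_LNA 48, stood apart: reads fell on 7276 genes in it, against 16687 to 20200 genes in the other 31 embryos. The median tested gene had a log2 fold change (Val_LNA minus Ctrl_LNA) of 0.26 with all embryos and 0.07 without Ctrl_LNA 48, so member results are given with and without that embryo. The 10 markers of the 2-cell embryo (among them Zscan4d, Dppa3 and Nlrp5) summed to between 11150 and 30580 normalised counts in Val_LNA and between 9995 and 25720 in Ctrl_LNA. In Ctrl_LNA 48 they summed to 17000, of which 1 gene gave 15390, and Tcstv1 was at 0. The 9 cumulus and granulosa markers summed to 0 to 364 normalised counts in Val_LNA and 0 to 185 in Ctrl_LNA, with Fshr and Foxl2 at 0 in every control, and the 4 sperm markers to 0 to 58.6 and 0 to 50.4. The part of such other cells in the results below was not tested.

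Canx fell in Val_LNA embryos, and of the 10 genes it was the 1 that passed the test with all embryos. Calnexin is the membrane-bound lectin chaperone of the ER. Its level ran from 89.5 to 876 normalised counts in Val_LNA with a median of 381, and from 962 to 3126 in Ctrl_LNA with a median of 1203. The groups did not overlap: the highest Val_LNA embryo, number 14, lay below the lowest control, number 36. Below number 14, the next Val_LNA embryo stood at 640, and the lowest by a wide margin was number 15, at 89.5 against 262 for the next. These values rest on 98 to 873 reads in Val_LNA and 1065 to 2976 reads in Ctrl_LNA.

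The mean of Canx was 410 ± 180 in Val_LNA and 1313 ± 514 in Ctrl_LNA, or 1192 ± 182 without Ctrl_LNA 48 (SD, n = 16, 16 and 15). On the log2(normalised count + 1) scale the difference was -1.75 ± 0.22 (SE, 95% interval -2.20 to -1.31, limma, adjusted p = 2.97e-06), the 9th smallest p of 15559. Without Ctrl_LNA 48 it was -1.67 ± 0.20 (limma, adjusted p = 1.14e-06). Of the 10 members, 1 was called lower and 0 higher (Hspa5 and Calr had unadjusted p under 0.05), where limma called 1.31% of all tested genes lower and 0.881% higher. Such unadjusted p-values were common: Calr, at 0.0379 in limma, ranked 1890 of 15559 tested genes by p. The members' median log2 fold change was 0.48 with 9 above 0 and 1 below, against a median of 0.26 over all tested genes. Without Ctrl_LNA 48 it was 0.15 with 7 above 0, against 0.07. After centring every embryo on its own median it was 0.03 with 6 above 0, against -0.19. Centring moves the limma log2 fold change of every gene by the same amount, so it is no separate check of the members against all genes. Because the members were picked with these calls in view, nothing is read from their share. Complete separation of the groups downwards was found in 5 tested genes (0.0321%): Canx, Asf1b, N4bp1, Srsf10 and RP23-199B2.8, the other 4 named after their values were seen. No tested gene separated completely upwards. EdgeR on the reads gave Canx a log2 fold change of -1.79 and called 0 members higher, where it called 1.08% of tested genes lower and 0.186% higher. DESeq2 gave -1.68 and also called 0 members higher, with 2.09% of tested genes lower and 1.21% higher.

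**Figure D1:**
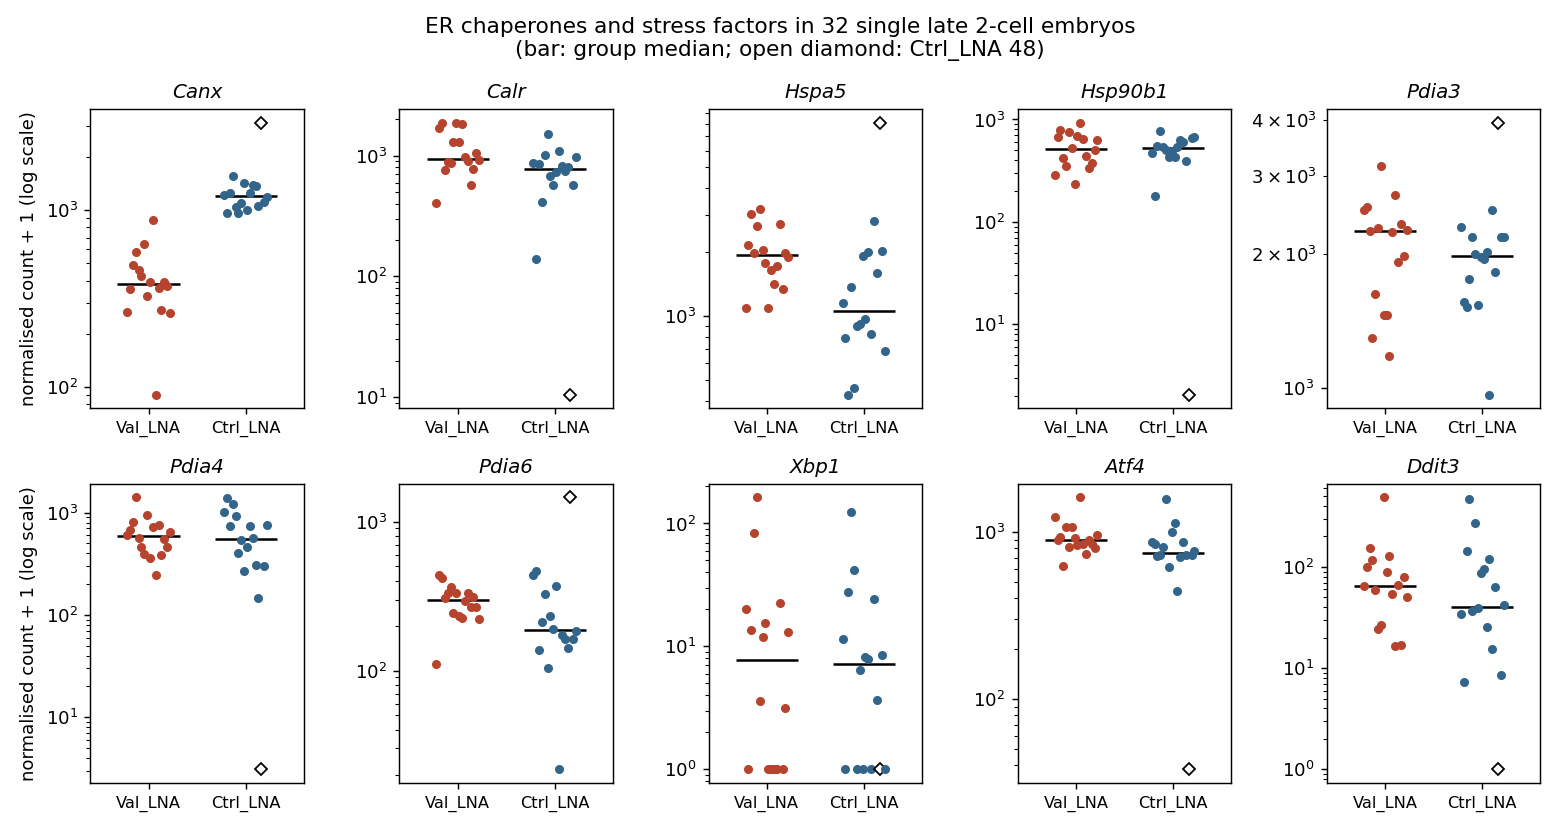
Normalised count plus 1 (log axis) of the 10 genes, 1 point per embryo, Val_LNA left and Ctrl_LNA right; bars are group medians and the open diamond is Ctrl_LNA 48. For Canx every Val_LNA embryo (at most 876) lies below every control (at least 962), while the other 9 genes overlap.

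Library numbers fall into a lower and an upper run in each group: Val_LNA embryos are numbered 1 to 8, then 13 to 20, and Ctrl_LNA embryos 31 to 38, then 43 to 50. Nothing in the labels ties these runs to a day or batch. In the lower runs Canx had a median of 442 in Val_LNA and 1157 in Ctrl_LNA (log2 fold change -1.46 ± 0.21, SE, limma, adjusted p = 0.0019, where 0.533% of tested genes were called lower). In the upper runs the medians were 367 and 1221 (-2.05 ± 0.38, adjusted p = 0.0238 in limma, where 0.212% were called lower and 0.0129% higher). Without Ctrl_LNA 48 the upper runs gave -1.88 ± 0.34 (limma, adjusted p = 0.00885, with 0.797% called lower and 0.045% higher). The fall was thus called in both pairs of runs, which have no embryo in common. Its direction in each pair was fixed by the complete separation of the groups, so the runs are not separate evidence for it. The difference between the effects in the upper and lower runs was -0.59 (95% interval -1.48 to 0.29, limma, adjusted p = 0.817).

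The start of the Canx gene is shown because it holds a copy of the ER stress element, the binding site through which Atf6 and Xbp1, together with NF-Y, are known to raise chaperone genes. Canx (ENSMUSG00000020368.15, a protein-coding gene like the other 9) lies on the minus strand of chromosome 11 at 50293961 to 50325673 (GRCm38). Its 250 bases before the RefSeq start, at chr11:50325674-50325923 (GRCm38.p6, minus strand, 5′ to 3′, element in capitals), read as follows.
Canx: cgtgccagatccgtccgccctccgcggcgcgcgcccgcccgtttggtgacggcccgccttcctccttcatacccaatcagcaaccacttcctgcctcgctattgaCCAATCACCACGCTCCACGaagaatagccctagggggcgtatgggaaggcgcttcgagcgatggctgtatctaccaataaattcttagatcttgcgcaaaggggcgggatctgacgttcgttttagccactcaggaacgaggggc

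The element was searched as CCAAT, then 9 bases of any kind, then CCACG, on both strands of the RefSeq promoters, 250 bases before to 50 after each start. It was present in 5 of the 10 members and in 39 of 32851 promoters (0.119%). The windows below give the other copies with 20 bases on each side, so that the sites of Canx and of its neighbours in function can be compared. Hspa5 has 1 at chr2:34772005-34772063 (plus strand), Calr 1 in the opposite orientation at chr8:84847055-84847113 (minus strand), Hsp90b1 a pair at chr10:86705618-86705676 and, in the opposite orientation, chr10:86705513-86705571 (minus strand), and Pdia6 1 at chr12:17266471-17266529 (plus strand), all 5′ to 3′ on the strand of the gene, on GRCm38.p6.
Hspa5: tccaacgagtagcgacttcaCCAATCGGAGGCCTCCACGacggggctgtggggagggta
Calr: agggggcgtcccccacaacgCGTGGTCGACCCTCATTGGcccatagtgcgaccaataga
Hsp90b1, first: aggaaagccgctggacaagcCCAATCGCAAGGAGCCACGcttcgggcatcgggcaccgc
Hsp90b1, next: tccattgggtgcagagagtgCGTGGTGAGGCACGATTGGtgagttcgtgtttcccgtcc
Pdia6: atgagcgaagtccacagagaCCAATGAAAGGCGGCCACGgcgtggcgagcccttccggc

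The element begins 145 bases before the RefSeq start in Canx, 65 in Hspa5, 162 in Calr, 212 and 107 in Hsp90b1 and 98 in Pdia6. The RefSeq start can differ from that of GENCODE, which gave the gene positions printed here. For Hspa5 the element, at 34772025 to 34772043, lies inside the GENCODE gene, which begins at 34771970. With all embryos Canx had a log2 fold change of -1.75 and the other 4 lay between 0.43 (Pdia6) and 0.93 (Calr), none of them called. Of 37 genes with this element, 21 were tested, 16 of them other than members. Canx was the 1 called, where limma called 1.31% of all tested genes lower and 0.881% higher. The median log2 fold change of the 21 was 0.43, against 0.26 for all tested genes. Without Ctrl_LNA 48 Canx and Hspa5 were called, 1 lower and 1 higher, and the median was 0.15 against 0.07. In that fit limma called 2.63% of all tested genes lower and 1.57% higher. The members among the 21 were picked with these values known, so nothing is read from these counts and medians. No member promoter held the second form of the element, which is ATTGG, 1 base of any kind, then CCACG (0.0365% of promoters), TGACGTGG, a site described for Xbp1 and Atf6 (0.676%), or TGATGNAA, the core of sites for Atf4 with C/EBP factors (3.97%), on either strand. The window of Pdia4 could not be placed on a GENCODE transcript, so its lack of a match carries less weight. Both forms of the element share the letters CCACG, and a missing match says only that these letters are not in this window.

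Calr (chromosome 8, 84841850 to 84846934, minus strand), the soluble lumenal relative of calnexin, did not pass the test. It ran from 408 to 1879 normalised counts in Val_LNA with a median of 948, and from 9.45 to 1521 in Ctrl_LNA with a median of 779. The groups overlapped widely, and 12 of 16 Val_LNA embryos lay above the control median. The log2 fold change was 0.93 ± 0.43 (SE, 95% interval 0.05 to 1.80, limma, adjusted p = 0.312), and 0.55 ± 0.25 without Ctrl_LNA 48 (limma, adjusted p = 0.246).

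Levels of different genes were compared per kilobase (kb) of annotated exon. In every Val_LNA embryo Canx stood below Calr per kb, with a ratio of Canx to Calr between 0.0562 and 0.469 and a median of 0.268. In Ctrl_LNA the ratio ran from 0.388 to 203 with a median of 0.948, and Canx was the higher of both lectins in 7 of 16 embryos. Without Ctrl_LNA 48, whose ratio was the 203, the highest control ratio was 4.28. These ratios restate the Canx and Calr values and carry no test.

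**Figure D2:**
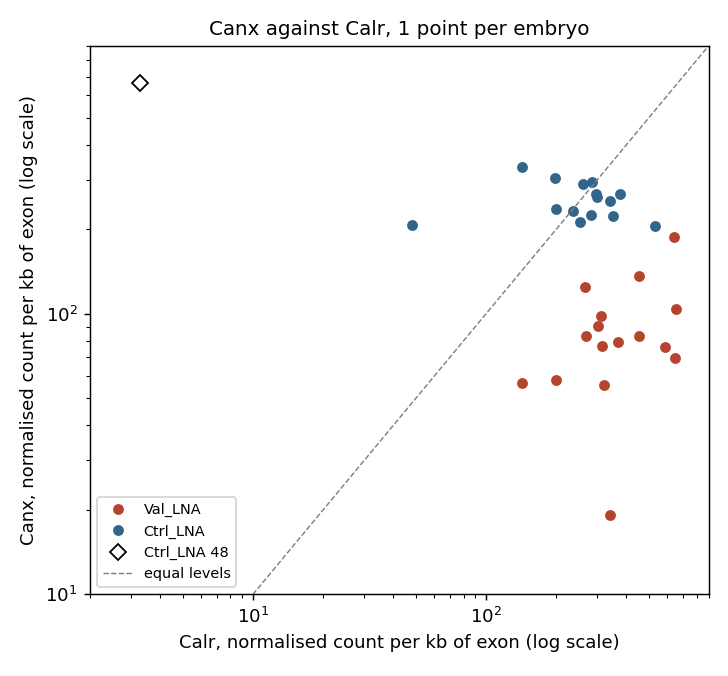
Canx against Calr in normalised counts per kb of exon (both axes log), 1 point per embryo, with a dashed line of equal levels. All 16 Val_LNA points lie below the line, while 7 of 16 controls lie above it, Ctrl_LNA 48 (open diamond) at the far upper left.

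For Hspa5 (chromosome 2, 34771970 to 34777547, plus strand), the ATP-driven chaperone that also holds the ER stress sensors inactive, the call depended on the control Ctrl_LNA 48, the method and the runs compared. It ran from 1085 to 3186 normalised counts in Val_LNA with a median of 1927, and from 425 to 8117 in Ctrl_LNA with a median of 1058. Every Val_LNA embryo lay above the control median, but the ranges overlapped, and the highest embryo of all was Ctrl_LNA 48, followed among controls by number 46 at 2784. With all embryos the log2 fold change was 0.61 ± 0.28 (SE, 95% interval 0.04 to 1.17, limma, adjusted p = 0.304). Without Ctrl_LNA 48 Hspa5 rose by 0.79 ± 0.23 (SE, 95% interval 0.33 to 1.25, limma, adjusted p = 0.0391), when limma called 1.57% of tested genes higher and 2.63% lower. On the same 31 embryos the call was absent in edgeR (0.56, adjusted p = 0.299), in DESeq2 (0.58, adjusted p = 0.157) and in limma after centring every embryo on its own median (0.72, adjusted p = 0.085), settings that called 0.546%, 1.72% and 1.20% of tested genes higher. With array weights, which let limma give less weight to embryos that vary more, all 32 embryos gave 0.87 ± 0.23 (SE, adjusted p = 0.0151), where 2.27% of tested genes were called higher and 3.62% lower.

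The Hspa5 difference also varied between the runs of library numbers. In the lower runs the median was 2103 in Val_LNA and 903 in Ctrl_LNA, and Hspa5 rose by 1.27 ± 0.30 (SE, limma, adjusted p = 0.0437, where 0.623% of tested genes were called higher). In the upper runs the medians were 1686 and 1797, with a log2 fold change of -0.05 ± 0.39 (limma, adjusted p = 0.961), or 0.26 ± 0.29 without Ctrl_LNA 48 (limma, adjusted p = 0.714). The difference between these effects, upper minus lower, was -1.33 ± 0.52 (SE, unadjusted p = 0.0148, adjusted p = 0.817 in limma), and -1.01 ± 0.43 without Ctrl_LNA 48 (adjusted p = 0.831 in limma). Limma called this difference for 0 genes with all embryos (808, or 5.19%, at an unadjusted p under 0.05) and for 0 without Ctrl_LNA 48 (920, or 5.91%), so it did not pass for Hspa5.

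**Figure D3:**
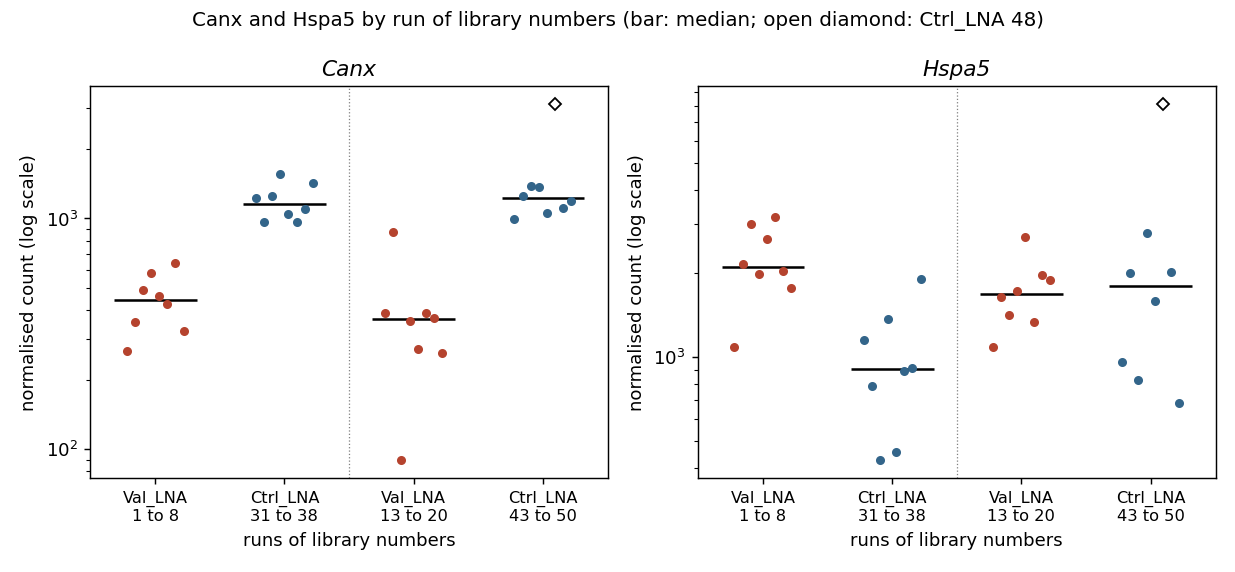
Normalised count (log axis) of Canx and Hspa5 by run of library numbers, each Val_LNA run left of the Ctrl_LNA run it was set against; bars are medians and the open diamond is Ctrl_LNA 48. Canx medians are 442 and 1157 in the lower runs and 367 and 1221 in the upper runs; Hspa5 medians are 2103 and 903, then 1686 and 1797.

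Hsp90b1 (chromosome 10, 86690209 to 86705509, minus strand), the ER member of the Hsp90 family, had nearly the same median in both groups, 511 normalised counts in Val_LNA (range 235 to 929) and 521 in Ctrl_LNA (range 1.05 to 776). Its log2 fold change of 0.49 (95% interval -0.54 to 1.51, limma, adjusted p = 0.652) was carried by Ctrl_LNA 48, the embryo at 1.05. Without that embryo it was -0.01 (95% interval -0.41 to 0.40, limma, adjusted p = 0.99), an interval that still allows differences of that size in either direction. Its exons overlap those of 1810014B01Rik on the other strand and of Gm15344 and Gm25745 on the same strand, and the libraries do not mark strand, so reads of these genes cannot be told apart where they overlap.

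None of the 3 disulfide isomerases passed the test. Pdia3 (ERp57; chromosome 2, 121413775 to 121438687, plus strand), which works with both lectins on glycoproteins, had the highest mean level per kb of the 10 genes in both groups. It ran from 1178 to 3157 normalised counts in Val_LNA with a median of 2252, and from 966 to 3948 in Ctrl_LNA with a median of 1985. Its log2 fold change was 0.04 (95% interval -0.27 to 0.36, limma, adjusted p = 0.909), the narrowest interval of the 10. After centring every embryo on its own median it was -0.40 with all embryos (limma, adjusted p = 0.734) and 0.04 without Ctrl_LNA 48. Exons of Catsper2 overlap it on the other strand.

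Pdia4 (ERp72; chromosome 6, 47796141 to 47813430, minus strand), which carries several thioredoxin-like domains, ran from 244 to 1408 normalised counts in Val_LNA with a median of 584, and from 2.10 to 1397 in Ctrl_LNA with a median of 555. The log2 fold change was 0.53 (95% interval -0.51 to 1.56, limma, adjusted p = 0.628), and 0.06 without Ctrl_LNA 48 (95% interval -0.49 to 0.60).

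Pdia6 (P5; chromosome 12, 17266545 to 17284770, plus strand), which binds Hspa5 and the sensor Ern1, had a coefficient of variation of 27.4% in Val_LNA and 56.7% in Ctrl_LNA without number 48. It ran from 110 to 437 normalised counts in Val_LNA with a median of 298, and from 20.7 to 1455 in Ctrl_LNA with a median of 185. In Val_LNA 15 of 16 embryos lay above the control median, but the whole Val_LNA range fell inside that of the controls, also without Ctrl_LNA 48. The log2 fold change was 0.43 (95% interval -0.27 to 1.14, limma, adjusted p = 0.556), and 0.62 without Ctrl_LNA 48 (95% interval 0.03 to 1.21, limma, adjusted p = 0.262). After centring it was -0.02 with all embryos and 0.55 without Ctrl_LNA 48. Exons of Atp6v1c2 overlap it on the other strand.

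**Figure D4:**
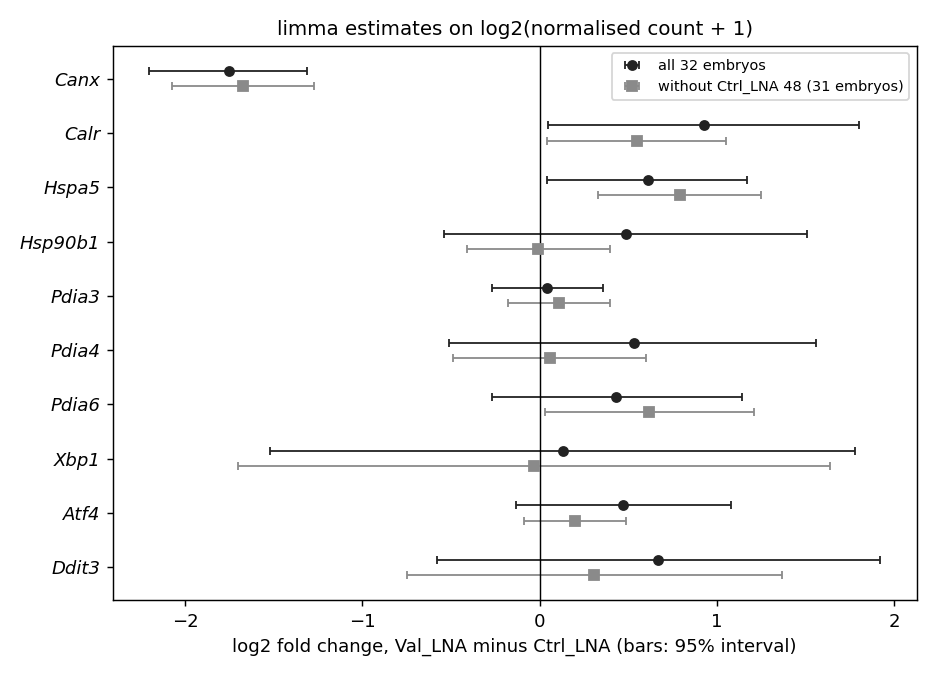
Log2 fold change (Val_LNA minus Ctrl_LNA) of the 10 genes with 95% intervals from limma, with all 32 embryos (circles) and without Ctrl_LNA 48 (squares). Canx lies at -1.75 and -1.67; Hspa5 lies at 0.61 and 0.79, and Hsp90b1 at 0.49 and -0.01.

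Among the stress factors, Atf4 (chromosome 15, 80255184 to 80257541, plus strand), the transcription factor of the integrated stress response, was the most abundant. It ran from 623 to 1614 normalised counts in Val_LNA with a median of 899, and from 36.8 to 1572 in Ctrl_LNA with a median of 751. Although 14 of 16 Val_LNA embryos lay above the control median, the log2 fold change of 0.47 (95% interval -0.13 to 1.08, limma, adjusted p = 0.451) did not pass, and it was 0.20 without Ctrl_LNA 48 (95% interval -0.09 to 0.49). Atf4 is regulated largely through its translation, which mRNA levels do not show.

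Ddit3 (chromosome 10, 127290774 to 127296288, plus strand), a factor that promotes cell death under lasting ER stress, was low and uneven. It ran from 15.4 to 486 normalised counts in Val_LNA with a median of 63.9, and from 0 to 470 in Ctrl_LNA with a median of 39.5. The highest embryos, Val_LNA 8 and Ctrl_LNA 34, stood far above their group's median. The log2 fold change was 0.67 (95% interval -0.58 to 1.92, limma, adjusted p = 0.606), and 0.31 without Ctrl_LNA 48, which held it at 0 (95% interval -0.75 to 1.37, limma, adjusted p = 0.814). Ddit3 overlaps exons of Mars, Gm4189 and a further Ddit3 entry of GENCODE, and these libraries do not mark strand, so its reads are uncertain.

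Xbp1 (chromosome 11, 5520659 to 5525893, plus strand), whose mRNA is spliced by Ern1 to its active form, was low in both groups. In each group 10 of 16 embryos had at least 1 read. Medians in Val_LNA and Ctrl_LNA were 6.80 and 6.19 normalised counts, and the highest values were 162 (Val_LNA 5) and 123 (Ctrl_LNA 34). The log2 fold change of 0.13 had a 95% interval of -1.52 to 1.78 (limma, adjusted p = 0.951), too wide to show a difference at this depth, and it was -0.03 without Ctrl_LNA 48 (95% interval -1.70 to 1.64). After centring it was -0.32 with all embryos and -0.10 without Ctrl_LNA 48. A gene-level count also does not separate the spliced from the unspliced form.

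By mean level per kb, Val_LNA embryos ranked Pdia3 first at 662 ± 177, then Hspa5 at 468 ± 151, Atf4 at 400 ± 96.7, Calr at 391 ± 163, Pdia4 at 261 ± 116, Hsp90b1 at 133 ± 50.0, Canx at 87.4 ± 38.4, Pdia6 at 78.0 ± 21.4, Ddit3 at 55.6 ± 65.5 and Xbp1 at 6.53 ± 13.1 (SD, n = 16). Every pair of neighbours in that order overlapped within 1 SD. In the 15 other controls Canx averaged 254 ± 38.9 per kb (SD), close to Calr at 273 ± 110 and Pdia4 at 272 ± 153, and in 15 of 15 embryos it was above Hsp90b1 at 130 ± 35.2. In Val_LNA Hsp90b1 was instead above Canx in 12 of 16 embryos. Among these 15 controls Canx was also the most even of the 10 genes, with a coefficient of variation of 15.3%. Over all 16 controls its coefficient was 39.2%, and Canx was not the most even. Pdia3 (31.3%) and Hsp90b1 (38.5%) were then lower and the other members higher. In Val_LNA the coefficient of Canx was 44%, above those of Hspa5 (32.2%), Pdia3 (26.7%) and Atf4 (24.1%). Whether Canx varied more in Val_LNA than in the controls was not tested.

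In Ctrl_LNA 48 the members lay apart in opposite directions. Canx (3126), Hspa5 (8117), Pdia3 (3948) and Pdia6 (1455 normalised counts) lay above the range of the other 15 controls, whose highest values were 1564, 2784, 2507 and 462. Calr (9.45), Hsp90b1 (1.05), Pdia4 (2.10), Atf4 (36.8) and Ddit3 (0) lay below it, the lowest of the other controls being 139, 176, 144, 443 and 6.32. Those low values stand for 9, 1, 2, 35 and 0 reads, and Xbp1 also had 0. Of the 15559 tested genes, 2334 lay above and 6401 below that range in this embryo.

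Across embryos most pairs of the 10 genes had a weak correlation. Pairs of other genes were not examined as a background, so independence cannot be read from these values. Over 31 embryos without Ctrl_LNA 48, each gene centred on its group mean, Spearman's rho for the 45 pairs had a median of 0.04, with 27 positive pairs. The highest was 0.40, for Calr with Hsp90b1, and the lowest -0.57, for Pdia3 with Ddit3 (Pearson's r -0.45). With all 32 embryos these were 0.55 and -0.59. The embryos share no stated origin, and these values are a description. The genes outside the lists most like the mean of the 10 members were Nfkbia (rho 0.74), Pfdn5 (0.72) and Myl6 (0.70), and those most like Hspa5 were Agpat5 (0.72), Ube2e3 (0.71) and Nipal1 (0.71), each over 31 embryos and the highest of the tested genes with ordinary names. With all 32 embryos these rho values were 0.77, 0.58 and 0.64 for the mean, and 0.61, 0.75 and 0.58 for Hspa5.

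The other genes of ER folding, degradation and stress signalling were described through 8 lists, which held 162 tested genes. Of these, 1 rose (Prdx4), 3 fell (Slc3a2, Fkbp11 and Vcp) and 158 did not pass, against 0.881% higher and 1.31% lower of all tested genes. In limma 29 of the 162 had an unadjusted p under 0.05, a level that at least 1890 of the 15559 tested genes reached. The median log2 fold change of the 162 was 0.12, against 0.26 for all tested genes, and -0.04 against 0.07 without Ctrl_LNA 48.

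None of the 11 tested sensors of the unfolded protein response and their relatives passed (limma, 0 of 11 at an unadjusted p under 0.05, and 0 called in edgeR). The smallest p was that of Creb3l2, an ATF6-like factor, with reads in 6 of 16 embryos of Val_LNA and 10 of 16 of Ctrl_LNA (log2 fold change -1.16, limma, adjusted p = 0.42). None of 14 genes of the integrated stress response, which carries stress signals to the initiation factor eIF2, passed either (limma, 3 at an unadjusted p under 0.05, 0 called in edgeR). Its smallest p was that of Eif2ak1, the haem-regulated eIF2 kinase, with a median of 653 normalised counts in Val_LNA and 843 in Ctrl_LNA (-0.38 ± 0.14, SE, limma, adjusted p = 0.179). Eif2ak1 was called lower with array weights (-0.41, limma, adjusted p = 0.0333) and in DESeq2 without Ctrl_LNA 48 (-0.43, adjusted p = 0.0108), but not in limma (adjusted p = 0.0647) or edgeR (adjusted p = 0.0611) on those 31 embryos.

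Of 25 tested targets of Atf4 and Ddit3, Slc3a2 fell, 0 rose and 24 did not pass in limma, while edgeR called 3 lower, Slc3a2, Mthfd2 and Bcl2l11. Over all tested genes limma called 1.31% lower and edgeR 1.08%. Slc3a2 is the heavy chain shared by several amino acid transporters. It ran from 37.5 to 479 normalised counts in Val_LNA with a median of 248, and from 465 to 1412 in Ctrl_LNA with a median of 827. The groups met only at their edges, and all 16 Val_LNA embryos were under the median of the controls (log2 fold change -2.01 ± 0.29, SE, limma, adjusted p = 3.9e-05). Without Ctrl_LNA 48 it was -1.96 ± 0.28 (limma, adjusted p = 2.61e-05), and the call was kept whichever of the 32 embryos was left out. Mthfd2, a mitochondrial folate enzyme named, like Bcl2l11, after its values were seen, was called lower with all embryos in edgeR (-2.47, adjusted p = 0.00138) and DESeq2 (adjusted p = 1.08e-05) but not in limma (-1.90 ± 0.64, SE, adjusted p = 0.127). Without Ctrl_LNA 48 limma gave -2.47 ± 0.37 (SE, adjusted p = 5.78e-05). Its median was 232 in Val_LNA and 1086 in Ctrl_LNA, and Ctrl_LNA 48 held it at 1.05. The list median was -0.14, and -0.22 without that embryo.

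Of 23 folding cofactors, Fkbp11, an ER prolyl isomerase, fell and 22 did not pass. It was low, with a median of 7.88 normalised counts in Val_LNA (range 0 to 66.3) and 43.5 in Ctrl_LNA (range 3.76 to 472), a log2 fold change of -2.50 ± 0.67 (SE, limma, adjusted p = 0.0357, and adjusted p = 0.1 in edgeR). Without Ctrl_LNA 48 it was -2.31 ± 0.66 (limma, adjusted p = 0.0382). Of 20 oxidoreductases, Prdx4, the ER peroxiredoxin that uses hydrogen peroxide to form disulfides, rose and 19 did not pass. It ran from 188 to 934 normalised counts in Val_LNA with a median of 556, and from 0 to 507 in Ctrl_LNA with a median of 200. The log2 fold change was 2.06 ± 0.56 (SE, limma, adjusted p = 0.0382), and 1.59 ± 0.34 without Ctrl_LNA 48, the control at 0 (limma, adjusted p = 0.00345). In edgeR with all embryos it was 1.31 and was not called (adjusted p = 0.124). With all embryos the limma calls of Fkbp11, Prdx4 and Vcp lay near the threshold: with each of the 32 embryos left out in turn they were lost without any 1 of 11, 17 and 17 embryos, and all 3 were lost when genes with low values were kept in (adjusted p = 0.0728, 0.0745 and 0.1). DESeq2 with all embryos called all 3 (adjusted p = 0.0126, 0.00984 and 0.0365). Without Ctrl_LNA 48 edgeR called Prdx4 (adjusted p = 0.0318) but not Fkbp11 (adjusted p = 0.133) or Vcp (adjusted p = 0.117).

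Of 28 genes of ER-associated degradation, which returns misfolded proteins to the proteasome, Vcp fell and 27 did not pass. Vcp, the ATPase that pulls proteins out of the ER membrane, had a median of 785 normalised counts in Val_LNA (range 82.3 to 1275) and 1190 in Ctrl_LNA (range 548 to 2194), a log2 fold change of -1.08 ± 0.30 (SE, limma, adjusted p = 0.0432, and adjusted p = 0.124 in edgeR). Without Ctrl_LNA 48 it was -1.05 ± 0.30 (limma, adjusted p = 0.0354). Without Ctrl_LNA 48 a further 3, chosen after their values were seen, were called in limma: Herpud2 fell by 2.30 (adjusted p = 8.32e-05), while Ubxn4 (0.95, adjusted p = 0.0449) and Derl2 (1.38, adjusted p = 0.0473) rose. In that fit 2.63% of all tested genes were called lower and 1.57% higher. Herpud2, which had an adjusted p of 0.0649 in limma with all embryos, was called lower there in edgeR (adjusted p = 0.0149) and DESeq2 (adjusted p = 0.00142). Ubxn4 and Derl2 were called in none of edgeR (adjusted p = 0.54 and 0.179), DESeq2 (0.397 and 0.0503) and limma after centring (0.105 and 0.0786) on the 31 embryos without Ctrl_LNA 48. None of the 22 genes of the calnexin cycle and glycoprotein processing passed (limma, 3 at an unadjusted p under 0.05, 0 called in edgeR). There the smallest p was that of Ddost, a subunit of the oligosaccharyltransferase (1.18 ± 0.42, SE, limma, adjusted p = 0.148), with a median of 206 in Val_LNA and 87.3 in Ctrl_LNA. None of the 20 genes of ER translocation passed (limma, 2 at an unadjusted p under 0.05, 0 called in edgeR), with Tram2 at the smallest p (1.53 ± 0.56, SE, limma, adjusted p = 0.168).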

How the data were processed

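Per the file headers, the authors deposited gene-level values already scaled by DESeq: each is a signal, a read count over that embryo's size factor. The factors themselves are deposited as 1 score per embryo. Bowtie2, STAR, SAMtools and DESeq2 with build mm10 are named in the submitters' processing notes; no version, role or annotation is given in the sources used here. Multiplying back gave whole reads, to within the rounding of the file, for 1095136 of 1095136 values (largest distance 0.0086). Libraries were amplified without molecular identifiers, so counts carry counting error and PCR copies.

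The main test was limma 3.58.1 (R 4.3.3; trend, robust) on log2(normalised count + 1), over genes with at least 10 in at least 8 embryos, with Benjamini-Hochberg adjustment over 15559 genes and calls at adjusted p under 0.05. This scale understates changes of low genes. EdgeR 4.0.16 (quasi-likelihood) and DESeq2 1.42.0 were run on the recovered reads as alternatives. Only the limma and edgeR fits were tested on simulated data. DESeq2 and the fits with array weights, centring or separate runs were not tested in that way, nor was the difference between runs. Of the identifiers, 34179 of 34223 (99.9%) matched GENCODE M21, which gave positions and the exon length for levels per kb; promoters are from RefSeq on GRCm38.p6 and matched 10 of 10 members by symbol. The transcribed end of the promoter was found in a GENCODE transcript of the members for 9 of 10, but not for Pdia4, whose window was not checked further. Over 240 pairs within groups the lowest chi-square per gene was 23.4, so no library looked deposited more than once. Members and lists were chosen with earlier results of these data known. Named genes were the 10 members, up to 4 called genes of each list or else the one with the smallest p, and the 3 genes most like the members' mean and most like Hspa5. Python 3.11.15, pandas 2.3.3 and matplotlib 3.10.9 were used for descriptions and figures.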

Additional observations from a re-analysis of the deposited data

How the results depend on the processing

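Canx was lower and called in all 44 alternatives run, with a log2 fold change between -2.20 and -1.46 and an adjusted p of at most 0.0238. Of these alternatives, 32 were the main limma fit with 1 embryo left out. Over all tested genes 137 were called higher and 204 lower. Higher calls were 29 in edgeR, 87 without a filter on low values, 61 centred on the median gene, 353 with array weights and 2 in the upper runs. Without Ctrl_LNA 48 they were 85 in edgeR, 268 in DESeq2 and 7 in the upper runs. Lower calls were 325 in DESeq2, 564 with array weights, 83 in the lower and 33 in the upper runs, and without Ctrl_LNA 48 they were 401 in DESeq2, 433 centred on the median gene and 124 in the upper runs. Leaving out each embryo gave 100 to 245 higher and 176 to 409 lower, the highest without Ctrl_LNA 48. Centring moved the split of calls to 61 higher and 300 lower with all embryos, and the centred split was 186 higher and 433 lower without Ctrl_LNA 48.

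Hspa5 was the 1 member called higher with array weights (0.87), in the lower runs (1.27) and without Ctrl_LNA 48; leaving out each embryo gave 0 to 1. List genes called higher were 0 in edgeR and in the upper runs with and without Ctrl_LNA 48, 2 in the lower runs (Ddost, Ubxn4), 2 in DESeq2 without Ctrl_LNA 48 (Calr3, Prdx4), 3 in limma without it, 4 with array weights and 0 without a filter on low values. Those called lower were 6 in DESeq2, 5 with pseudocount 5, 7 with array weights, 1 in the upper runs and 1 without a filter (Slc3a2 in both), and without Ctrl_LNA 48 they were 5 in limma, 6 centred on the median gene and 8 in DESeq2. Of all tested genes, those settings called higher 0.186% (edgeR), 0.623% (lower runs), 2.27% (array weights), 1.57% (limma without Ctrl_LNA 48) and 1.72% (DESeq2 without it). They called lower 2.09% (DESeq2), 3.62% (array weights), 0.212% (upper runs) and 2.63% (limma without Ctrl_LNA 48). The lists were chosen with earlier results known, so nothing is read from these counts. Genes named here beside the list rule were named after their values were seen.

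The sign of members that were not called turned as follows, and the cause was not tested. Hspa5 was -0.05 in the upper runs. Hsp90b1 was -0.03 with array weights, and without Ctrl_LNA 48 it was -0.06 in edgeR, -0.03 in DESeq2, -0.03 in the upper runs and -0.08 centred on the median gene; leaving out each embryo gave -0.01 to 0.56. Pdia3 was -0.03 in edgeR, -0.40 centred on the median gene and -0.08 in the upper runs, and -0.02 to 0.11 leaving out each embryo. Pdia4 was -0.05 in edgeR, -0.02 with array weights and -0.08 in the lower runs, and without Ctrl_LNA 48 it was -0.14 in edgeR, -0.11 in DESeq2 and -0.01 centred on the median gene. Pdia6 was -0.09 in edgeR, -0.03 in DESeq2 and -0.02 centred on the median gene. Xbp1 was -0.32 centred on the median gene, -0.27 with array weights and -0.72 in the upper runs, and without Ctrl_LNA 48 it was -1.0 in the upper runs and -0.10 centred on the median gene; leaving out each embryo gave -0.19 to 0.43. Ddit3 was -0.09 in edgeR, and without Ctrl_LNA 48 it was -0.17 in edgeR and -0.12 in DESeq2. Without Ctrl_LNA 48, the fits of the upper runs, of centred values and of DESeq2 were added after seeing the data, as were, for the lists, the pseudocount, the filter, array weights, edgeR without Ctrl_LNA 48 and leaving out each embryo. No paired analysis was possible because the labels do not say which embryos shared a mating or an injection session.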
